A study of Mus musculus with 12 samples.

Results

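Egressed CD44+ CD8+ T cells of the tumor-draining lymph node were compared with CD44+ CD8+ T cells of the spleen across all genes of the deposited count table, which took 8 of the 12 RNA sequencing libraries of the study, 4 of each kind. All cells came from 4 replicate mice that carried the Kaede transgene (Kaede-Tg) and a YUMMER1.7 tumor, a mouse melanoma line. Kaede is a protein whose fluorescence light turns from green to red. Tumors were illuminated on day 11 and organs collected on day 12. A red T cell found in the draining lymph node had been in the illuminated tumor about a day earlier. The egressed group was sorted as Kaede red+ CD44+ CD8+ cells of the draining lymph node. The spleen group was sorted as CD44+ CD8+ cells with no selection on Kaede color that the labels mention, and the submitters call it circulating effector cells. A further group of 4 libraries, Kaede red+ CD44+ CD8+ cells that were still in the tumor (tumor-retained), entered the model and is given where its level helps to place a gene. Every group carried the tumor and the transgene, so no library came from a tumor-free animal. Tissue of origin (lymph node or spleen), selection for red cells and exposure to the converting light all differ between the groups in the same way as their name, so these cannot be told apart.

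T cells that meet antigen or stress induce immediate early genes within minutes. Kinase cascades act on transcription factors that are already present, and these switch on AP-1 subunits such as FOS and JUN, the EGR and NR4A factors, and the phosphatases and NF-kappa-B inhibitors that end the signal. Antigen-experienced CD8 T cells also differ in where they travel. Cells bound for lymph nodes carry the chemokine receptor CCR7, exit from tissue needs the sphingosine receptor S1PR1 and its activator KLF2, and CD69 holds S1PR1 inside the cell.

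The egressed libraries held 24.6, 24.8, 29.2 and 22.7 M counts (M, mega) and the spleen libraries 31.4, 29.8, 33.4 and 27.3 M, in the order of libraries 1 to 4, which is also the order of all values below. Spleen libraries resembled each other more closely (Pearson correlation of log2 CPM 0.944 to 0.950) than egressed libraries did (0.775 to 0.833). Between 30658 and 32165 genes had a count in the spleen libraries, against 24310, 25916, 14927 and 15251 in egressed libraries 1 to 4. Egressed libraries 3 and 4 therefore stand apart by the number of genes detected, and the results are also given without them. The T cell genes Cd3d, Cd8a and Lck and the sorting marker Cd44 were present in all 8 libraries, with Cd44 at 128, 108, 95.2 and 49.7 CPM in egressed and 141, 112, 99.5 and 85.2 in spleen cells. Levels are counts per M (CPM) after TMM scaling, means are given ± SD (n = 4 libraries), and fold changes are log2 values of egressed over spleen ± SE. Adjusted p is the Benjamini-Hochberg value of edgeR's quasi-likelihood test over the 21457 genes tested, and a gene is called changed below 0.05.

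Genes changed in both directions. Those higher in egressed cells included immediate early genes and their feedback inhibitors (Fos, Jun, Dusp1, Dusp5, Tnfaip3, Nfkbiz), the signalling regulator Rgs1, the chemokine gene Ccl3, the receptor genes Lilrb4a and Lilr4b, Ier5l, Ctla2a, the inducible heat-shock genes Hspa1a and Hspa1b, and receptors shared with natural killer cells (Klrc1, Klrd1, Klrk1, Cd160). Those lower in egressed cells included the iron exporter gene Slc40a1 and many genes with long transcripts, such as the histone methyltransferase gene Kmt2d and the RNA polymerase II subunit gene Polr2a. The expression of homing and exit genes was not called changed in either direction. In all, 79 of 21457 genes changed (0.368%), 42 of them higher (0.196%) and 37 lower (0.172%) in egressed cells, and 1886 genes had an unadjusted p under 0.05. In a bulk library, more cells that make a transcript and more transcript per cell cannot be told apart, and this holds for every difference below.

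**Figure D1:**
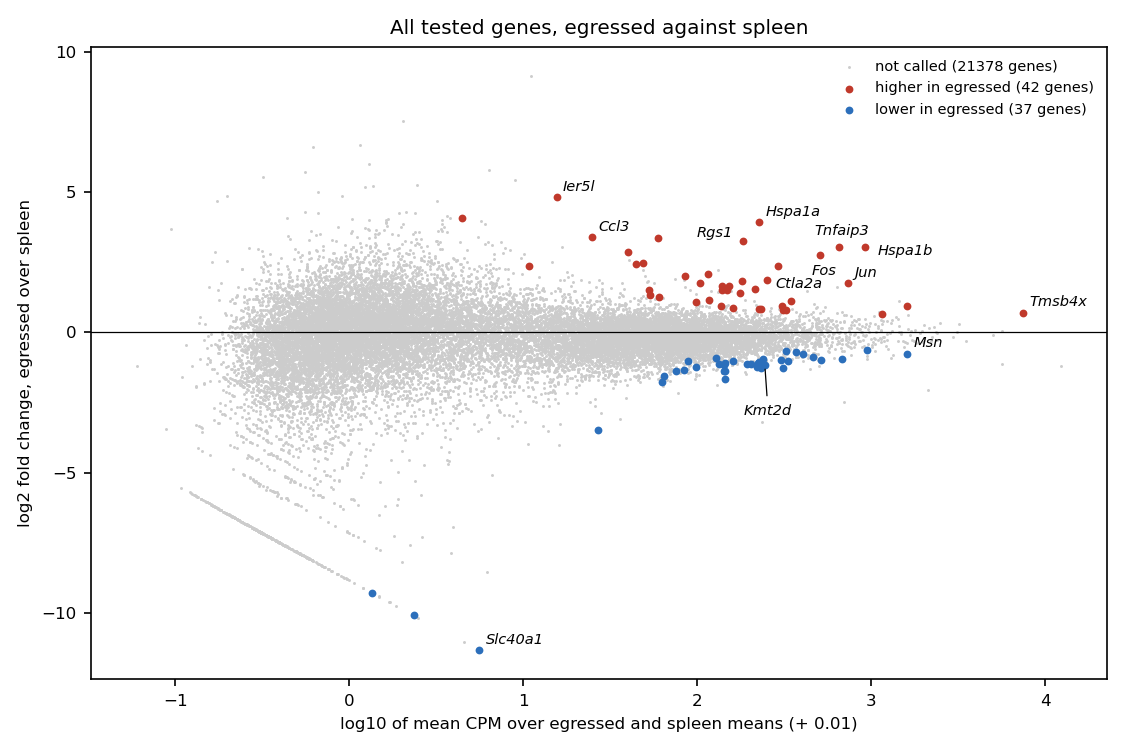
Log2 fold change of egressed over spleen (vertical axis) against the log10 of the mean level (horizontal axis) for each of the 21457 genes tested, with the 42 genes called higher in red, the 37 called lower in blue and the others in grey. The called genes lie mostly at middle to high levels, and the diagonal line at the lower left is made of genes at 0 in the 4 egressed libraries, whose fitted fold changes are not measured sizes.

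All 79 genes kept their direction in every setting tried, but how many passed depended on single libraries. Leaving out egressed libraries 1 to 4 in turn gave 9, 21, 49 and 33 called genes, and leaving out spleen libraries 1 to 4 gave 5, 9, 6 and 13. The genes that stayed called whichever of the 8 libraries was left out were Fos, Rgs1, Ctla2a and Tnfaip3, which were higher, and Kmt2d, which was lower. With the replicate number as a block, 23 genes were called, 15 higher and 8 lower, and 22 of them were among the 79. These were Fos, Rgs1, Tnfaip3, Ctla2a, Ier5l, Ccl3, Lilrb4a, Bcl2a1d, Dusp5, Nfkbiz, Cd160, Gas5, Ly6a, Mxd1 and Tmsb4x, all higher, and Kmt2d, Atp13a3, Arf3, Birc6, Klf13, Mknk2 and Ube2h, all lower. Without egressed libraries 3 and 4 the count was 24 (20 higher, 4 lower), of which 18 were among the 79 (Ier5l, Ccl3, Lilr4b, Rgs1, Tnfaip3, Lilrb4a, Fos, Bhlhe40, Dusp1, Bcl2a1d, Dusp5, Klrc1, Ctla2a, Odc1, Tmsb4x, Lfng, Kmt2d and Klf13). Without tumor-retained library 1, which takes part through the shared spread, the filter and the scaling, it was 123.

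The 8 libraries on their own gave 230 called genes of 19554 tested (1.18%), 117 higher (0.598%) and 113 lower (0.578%), and 74 of the 79 were among them. Over all genes tested the median log2 fold change was -0.13 with TMM scaling, 0.03 with DESeq2's size factors and 0.00 with library size alone. The share of called genes that were higher was 53.2% with TMM, 77.8% with size factors (70 higher, 20 lower) and 72.8% with library size alone (59 higher, 22 lower), and 62 and 64 of the 79 genes stayed called. A fold change is best read against that median. In 631 genes (2.94%) all 4 egressed libraries lay above all 4 spleen libraries, and in 2390 genes (11.1%) all lay below. These shares were 5.02% and 8.19% with size factors. Counts of list members above or below in the paragraphs that follow are to be read against these shares.

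**Figure D2:**
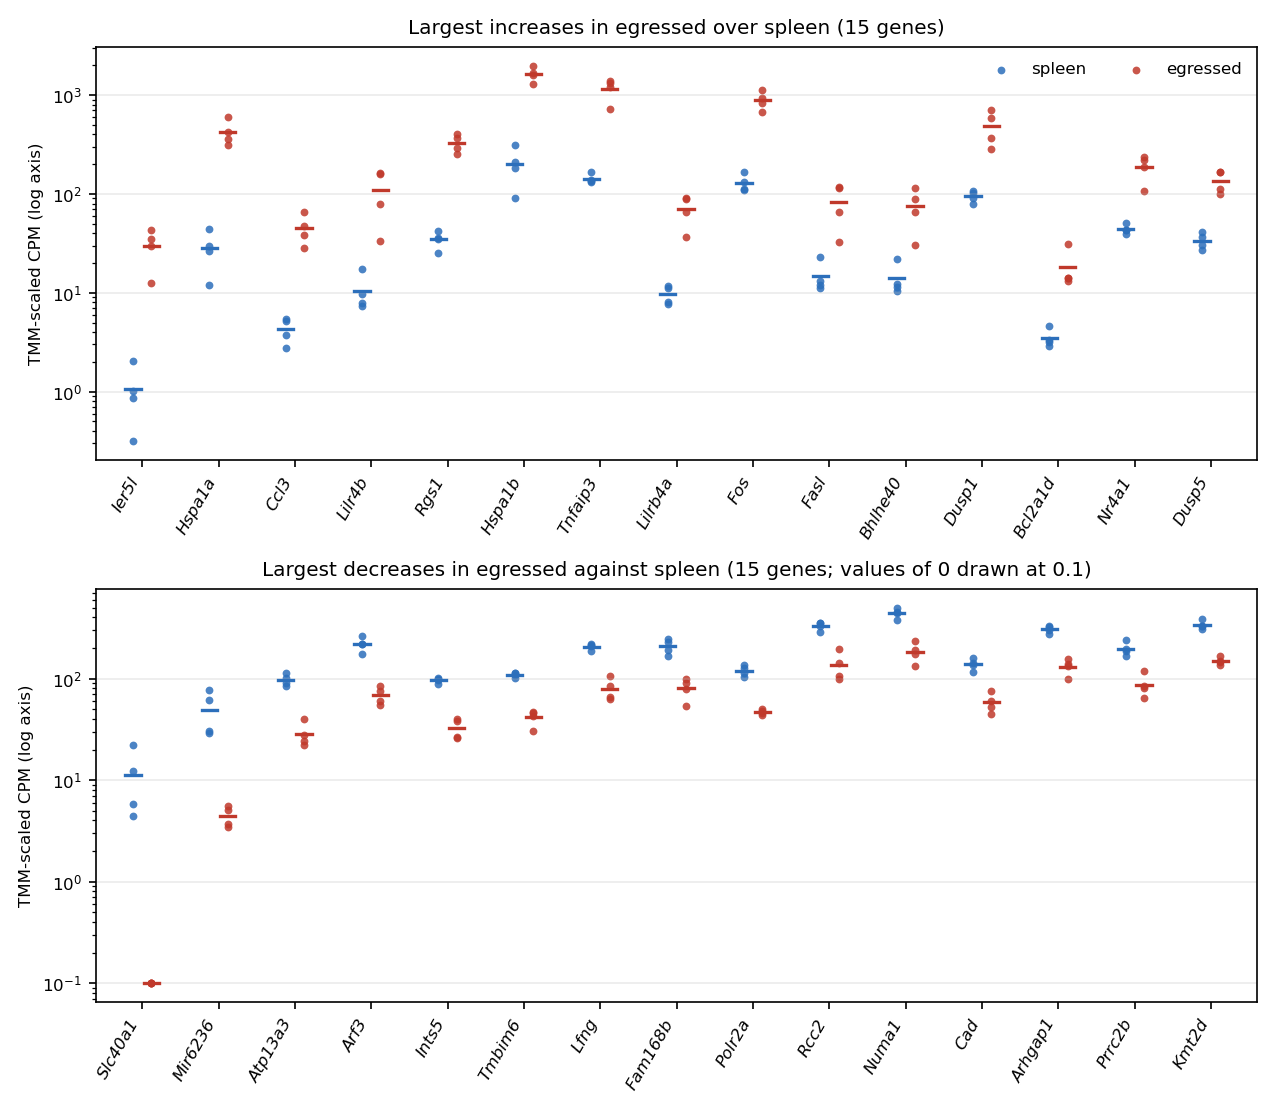
TMM-scaled CPM on a log axis in each library (points) with the group mean (bar) for the 15 called genes with the largest increase (upper panel) and the 15 with the largest decrease (lower panel), among genes whose higher group averaged at least 10 CPM. No egressed point overlaps a spleen point in any of the 30 genes, and Slc40a1 is drawn at 0.1 in the egressed group because its count was 0 there.

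Fos, which encodes a subunit of the transcription factor AP-1, was the gene with the smallest p. It stood at 928, 1121, 673 and 838 CPM in egressed and 110.3, 113, 166 and 132 CPM in spleen libraries. Every egressed library was several times any spleen library. Its log2 fold change was 2.77 ± 0.22 (adjusted p = 0.00057), and across all settings the adjusted p ran from 2.49e-30 to 0.0248. The gene spans chr12:85473890-85477273 on the plus strand (mm10). Jun, the main partner of FOS, measured 1184, 1448, 955 and 927 CPM in egressed and 315, 292, 407 and 336 CPM in spleen libraries, again with no overlap. It rose by 1.74 ± 0.27 (adjusted p = 0.0209), and this call was lost with the block (0.0853) and in 6 of the 8 fits that left out a library. Over its alternatives the adjusted p of Jun ran from 4.4e-09 to 0.137. Jun was also the AP-1 gene that stood above the level of cells still in the tumor, where it measured 479.6 ± 196 CPM (log2 difference of egressed over tumor-retained 1.23 ± 0.26, adjusted p = 0.0472). Fos measured 733 ± 165 CPM there, and that difference was not called (0.28 ± 0.21, adjusted p = 0.594).

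Of 13 AP-1 and ATF genes tested, 3 were called and all 3 were higher. The remaining one was Atf4, the effector of the integrated stress response, at 305, 273, 263 and 344 CPM in egressed and 167, 168, 177 and 161 CPM in spleen libraries (0.82 ± 0.13, adjusted p = 0.0232). Its call was lost with the block (0.0867, range over alternatives 3.92e-10 to 0.139) and in 6 of the 8 fits without a library. All 4 egressed libraries lay above all 4 spleen libraries in 6 of the 13 genes and below in none, and the median log2 fold change was 1.42. Among those not called, Junb stood at 2259.7, 2566, 1334 and 1697 CPM in egressed and 780.2, 934, 1047 and 915 CPM in spleen libraries (1.10 ± 0.27, adjusted p = 0.14). Fosl2 stood at 47, 40.3, 8.14 and 27.4 and 8.06, 7.54, 7.15 and 7.42 CPM (2.02 ± 0.45, adjusted p = 0.0937), with egressed library 3 close to the spleen level.

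The phosphatase genes Dusp1 and Dusp5, which switch MAP kinases off and are themselves induced by them, were both higher. Dusp1 measured 585, 714, 367 and 284 CPM in egressed and 79.2, 101, 106 and 90.8 CPM in spleen libraries (2.37 ± 0.31, adjusted p = 0.0114). Dusp5, which acts on ERK in the nucleus, measured 166, 167, 98.8 and 113 and 41.1, 36.4, 30.5 and 26.8 CPM (2.01 ± 0.27, adjusted p = 0.0121). Libraries 1 and 2 were the higher pair in the egressed group for both genes, and the lower pair was still above every spleen library. With the replicate block Dusp5 kept its call (adjusted p = 0.0104, range over alternatives 2.96e-11 to 0.095) and Dusp1 did not (0.058, range 1.32e-12 to 0.0824).

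These were the 2 called genes of 15 MAP kinase feedback genes, of which 7 had all egressed libraries above and 1 (Spred2) had all below, with a median of 1.12. Dusp10 stood at 179.5, 154, 88.6 and 122 CPM in egressed and 74.6, 60, 72.2 and 66.2 CPM in spleen libraries, with no overlap, and was not called (1.00 ± 0.32, adjusted p = 0.283). Spred2, an inhibitor of the RAS pathway, stood at 3.28, 4.32, 0.0327 and 0.0831 and 19.2, 18.8, 13.5 and 10.3 CPM (-3.00 ± 1.37, adjusted p = 0.559).

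The stretches just before the transcription starts of Fos, Dusp1, Nr4a1 and Dusp5 are shown because all are immediate early genes that were higher and because each holds short words known from signal-induced promoters. The sequences are from RefSeq on build GRCm38.p6, run 5′ to 3′ along the gene's own strand and end at the last base before the start. Capitals mark the core TGACG of the cyclic AMP response element on either strand (CGTCA on the other), and in Dusp5 also 2 adjoining CArG boxes, the word read by serum response factor. The windows are chr12:85473740-85473889 (plus strand) for Fos, chr17:26508473-26508672 (minus) for Dusp1, chr15:101266746-101266845 (plus) for Nr4a1 and chr19:53529045-53529144 (plus) for Dusp5.
Fos: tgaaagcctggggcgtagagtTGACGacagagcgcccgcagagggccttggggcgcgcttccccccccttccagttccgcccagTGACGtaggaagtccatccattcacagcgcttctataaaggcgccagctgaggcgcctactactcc
Dusp1: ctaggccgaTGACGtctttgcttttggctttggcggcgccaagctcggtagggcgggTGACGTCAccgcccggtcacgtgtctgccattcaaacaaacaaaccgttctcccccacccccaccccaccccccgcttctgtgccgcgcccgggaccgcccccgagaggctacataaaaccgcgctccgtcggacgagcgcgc
Nr4a1: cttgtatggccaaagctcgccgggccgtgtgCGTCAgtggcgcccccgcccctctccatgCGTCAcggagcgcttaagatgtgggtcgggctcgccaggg
Dusp5: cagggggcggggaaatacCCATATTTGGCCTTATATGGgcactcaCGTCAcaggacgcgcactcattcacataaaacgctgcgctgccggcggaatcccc

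In Dusp1 the whole palindrome TGACGTCA lies at bases -143 to -136 from the start, and 2 of its 3 cores overlap within it. In Fos the cores begin at -129 and -66. The word TGACG was present in 17.9% of all 27025 promoters searched (the 250 bases before the start) and in 24.5% of those of tested genes. It was present in 14 of 29 called-higher genes matched by symbol and in 10 of 28 called-lower genes. The whole palindrome was in 1.62% and a CArG box in 1.4% of all promoters. A match of letters describes the sequence and does not show that a factor binds there.

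Among 18 EGR, NR4A and other immediate early factors, Nr4a1 was the one called. Nr4a1 encodes an orphan nuclear receptor that follows antigen receptor signal strength, and it measured 219, 187, 107 and 235 CPM in egressed and 43.6, 51.3, 42.7 and 39 CPM in spleen libraries (2.08 ± 0.39, adjusted p = 0.0479). The call was lost with the block (0.103, range over alternatives 2.77e-06 to 0.279) and in 7 of 8 fits without a library. Ier2 stood at 703, 791, 588 and 723 and 335, 334, 453 and 382 CPM (0.90 ± 0.23, adjusted p = 0.156). All egressed libraries lay above all spleen libraries in 3 of the 18 and below in 1 (Srf), and the median was 0.72. The related gene Ier5l, of the immediate early response family, had the largest called increase among genes over 10 CPM. It was nearly absent from spleen, with 0.858, 0.314, 2.03 and 1.02 CPM against 42.8, 30, 34.8 and 12.6 in egressed libraries (4.82 ± 0.60, adjusted p = 0.0106), and leaving out 1 of the 8 libraries ended its call (adjusted p = 0.0649, range over alternatives 1.03e-19 to 0.1). Tumor-retained cells held 79.3 ± 18.6 CPM.

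Tnfaip3, which encodes A20, the enzyme that ends NF-kappa-B signalling, was higher in every egressed library. The values were 1399, 1321, 724 and 1206 CPM in egressed and 166, 137, 136 and 132 CPM in spleen libraries. Egressed library 3 was the lowest of its group and spleen library 1 the highest of its own, and they remained far apart. The log2 fold change was 3.02 ± 0.33 (adjusted p = 0.00388, 0.00678 with the block, range over alternatives 1.99e-17 to 0.456). Nfkbiz, an atypical I-kappa-B protein, measured 292, 293, 267 and 428 and 94.4, 101, 133 and 113 CPM (1.54 ± 0.22, adjusted p = 0.0193) and kept its call with the block (0.0343, range 3.34e-09 to 0.132). Nfkbia, the classical inhibitor of NF-kappa-B, stood at 695, 791, 434 and 565 and 268, 304, 366 and 314 CPM with no overlap, and just missed the threshold (0.99 ± 0.20, adjusted p = 0.0703).

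Of the 16 NF-kappa-B subunits and feedback genes, these 2 were called. All egressed libraries lay above in 4 and below in 2 (Cyld and Tnip1), and the median was 0.08, so the increase was in part of the list. The 100 bases before the start of Tnfaip3 (chr10:19015411-19015510, minus strand, RefSeq, GRCm38.p6) are shown for a match to the NF-kappa-B word (GGG, any 3 bases, then TTCC), here on the reverse strand at -12 to -3 and in capitals. That word was in 4.6% of all promoters. One more match, in Dusp5 at -90 to -81, overlaps the first of its CArG boxes and is not in capitals above.
Tnfaip3: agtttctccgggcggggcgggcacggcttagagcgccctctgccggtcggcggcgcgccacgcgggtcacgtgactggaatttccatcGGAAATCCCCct

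Rgs1, which speeds the shut-off of G-protein signals from chemokine receptors and is known from tissue-resident T cells, was higher in all egressed libraries. It measured 404, 366, 295 and 255 CPM in egressed and 36.2, 42.7, 34.7 and 25.3 CPM in spleen libraries. The lowest egressed value was several times the highest spleen value. The log2 fold change was 3.25 ± 0.29 (adjusted p = 0.000931, 0.00458 with the block, range over alternatives 3.69e-26 to 0.168). The gene spans chr1:144242296-144249242 on the minus strand. Of 11 regulators of G protein signalling tested Rgs1 was the one called, and 1 had all libraries above and 1 (Rgs18) all below. Tumor-retained cells held 732 ± 255 CPM, and the difference of egressed from these cells was -1.15 ± 0.27 (adjusted p = 0.0666).

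The residency list held 3 called genes of 18, Rgs1, Nr4a1 and Ctsw, all higher, with 5 above, 1 (Runx3) below and a median of 0.48. Its best known members gave no call. Cd69, which retains cells in tissue, stood at 534, 616, 447 and 913 CPM in egressed and 221, 229, 229 and 218 CPM in spleen libraries, with no overlap (1.49 ± 0.31, adjusted p = 0.0687). It passed in the fit of the 8 libraries alone (adjusted p = 0.0127), and over its alternatives the adjusted p ran from 0.000111 to 0.295. Itgae, the integrin chain CD103, overlapped between the groups at 101, 65.9, 63.3 and 184 and 79.9, 107, 105 and 69 CPM (0.20 ± 0.35, 95% interval -0.57 to 0.97). Cxcr6, a chemokine receptor of tissue T cells, also overlapped, at 278, 261, 142 and 143 and 190.4, 184, 161 and 144 CPM (0.28 ± 0.24, interval -0.25 to 0.81).

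Hspa1a and Hspa1b, the genes of the stress-induced chaperone HSP70, were higher by a wide margin. Hspa1a measured 427, 598, 358 and 315 CPM in egressed and 29.6, 12, 26.3 and 44.4 CPM in spleen libraries (3.92 ± 0.62, adjusted p = 0.0237). Hspa1b measured 1694, 1981, 1602 and 1295 and 209.7, 90.1, 184 and 315 CPM (3.04 ± 0.53, adjusted p = 0.0345). Spleen library 2 was the lowest and library 4 the highest of its group in both genes. Both calls were lost with the block (0.0867 and 0.107, ranges over alternatives 7.99e-11 to 0.221 and 3.73e-08 to 0.22), Hspa1a's in 6 and Hspa1b's in all 8 fits without a library. They were the 2 called genes of 22 heat-shock chaperones, whose median was 0.06, with 3 above and none below. Tumor-retained cells varied widely, at 402 ± 382 CPM for Hspa1a and 1422 ± 1295 CPM for Hspa1b.

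The 2 genes are near copies, so how reads were shared between them is uncertain: 58.8% of the 50-base words of the Hspa1a transcript also occur in Hspa1b. Their promoters are nearly the same too, with 3 differences in the 250 bases before the start and 1 in the 150 shown here (chr17:34972157-34972306 for Hspa1a and chr17:34959239-34959388 for Hspa1b, both minus strand, RefSeq, GRCm38.p6). Capitals mark the heat-shock core GAANNTTC, which was in 6.78% of all promoters.
Hspa1a: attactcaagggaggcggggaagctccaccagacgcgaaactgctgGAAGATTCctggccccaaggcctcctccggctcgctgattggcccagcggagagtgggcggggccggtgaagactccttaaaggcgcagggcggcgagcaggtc
Hspa1b: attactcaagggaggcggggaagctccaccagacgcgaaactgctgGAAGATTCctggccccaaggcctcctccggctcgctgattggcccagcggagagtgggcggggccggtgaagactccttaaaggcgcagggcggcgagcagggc

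Ccl3, a chemokine that activated CD8 T cells release, was higher in egressed cells. It measured 38.4, 47.7, 65.9 and 28.5 CPM in egressed and 5.46, 2.76, 5.18 and 3.71 CPM in spleen libraries (3.40 ± 0.45, adjusted p = 0.0114, 0.045 with the block, range over alternatives 7.14e-15 to 0.206). It was the one called of 19 cytokine and chemokine genes, of which 4 were above and 3 (Ltb, Il16 and Tnfsf9) below in all libraries, with a median of 0.60. Ccl4, its neighbor in the same family, stood at 100.1, 86.1, 46 and 92.4 and 28.8, 20.3, 20.6 and 21.6 CPM and missed the threshold (1.83 ± 0.38, adjusted p = 0.0687). Tnf stood at 38.9, 54.5, 38.5 and 43.4 and 11.2, 10.9, 15.9 and 13.8 CPM with no overlap (1.76 ± 0.37, adjusted p = 0.0754). Ifng, the effector cytokine of CD8 T cells, stood at 122, 104, 15.5 and 77.4 and 23, 18.5, 15.9 and 11.2 CPM (2.22 ± 0.59, adjusted p = 0.162), and egressed library 3 lay inside the spleen range while the other 3 lay above it.

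Receptors that CD8 T cells share with natural killer cells were higher. Klrd1 (CD94), the partner chain of NKG2 receptors, measured 527, 539.8, 414 and 409 CPM in egressed and 213, 217, 214 and 236 CPM in spleen libraries (1.10 ± 0.18, adjusted p = 0.0259). Klrc1 (NKG2A), the inhibitory chain that pairs with it, measured 202, 216, 126 and 97.3 and 47.4, 69, 28.2 and 45.3 CPM (1.75 ± 0.32, adjusted p = 0.0428). Klrk1 (NKG2D), an activating receptor for stress ligands, measured 307, 234, 132 and 207 and 68.6, 108, 54.6 and 77.7 CPM (1.51 ± 0.28, adjusted p = 0.0428). None of the 3 groups of values overlapped. All 3 calls were lost with the block (0.0628, 0.051 and 0.0569, with ranges over alternatives of 1.43e-07 to 0.229, 4.23e-06 to 0.222 and 7.74e-06 to 0.263).

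They were the called genes among 21 killer lectin and other innate-like receptors, of which 4 were above and none below in all libraries, with a median of 1.10. The median transcript of the tested members had 1414 bases. With the correction for transcript length given below, Klrk1 kept its call (0.0404) and Klrd1 and Klrc1 did not (0.117 and 0.068). Klrc1 shares 38.1% of its 50-base words with Klrc2, so its count is uncertain. The summed level of 12 marker genes of natural killer and gamma delta T cells was 259 to 577 CPM in egressed and 229.6 to 317 CPM in spleen libraries. Of the 11 tested, 10 had a fold change above 0, 1 lay above and none below in all libraries, none was called, and the median log2 fold change was 0.96. The defining natural killer gene Ncr1 stood at 0, 5.46, 0 and 0 CPM in egressed and 0.377, 1.6, 0.381 and 1.24 CPM in spleen libraries. Klrb1c, also a defining natural killer gene, stood at 11.7, 15.2, 25.7 and 0 and 6.9, 10.2, 5.56 and 4.37 CPM. Of the defining gamma delta genes, Tcrg-C1 stood at 27.8, 14.7, 0 and 21.4 and 4.56, 10.5, 2.89 and 3.49 CPM. Trdc stood at 8.44, 18.8, 7 and 3.12 and 10.9, 10.3, 4.16 and 7.82 CPM. Cd163l1, a gene of gamma delta T cells, stood at 205, 205, 380.4 and 120.3 CPM in egressed and 108, 71.9, 80.6 and 69.5 CPM in spleen libraries. The part of these cells in the result was not tested. Klrc1 and Klrk1 were lower in egressed than in tumor-retained cells, where they measured 561 ± 149.6 and 807 ± 199 CPM (log2 differences -1.81 ± 0.32 and -1.88 ± 0.28, adjusted p = 0.0232 and 0.00989).

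Of 18 cytotoxic molecules tested, Fasl and Ctsw were called. Fasl, the death ligand of cytotoxic cells, measured 117, 32.8, 65.3 and 115 CPM in egressed and 12, 22.8, 11.1 and 13.2 CPM in spleen libraries (2.48 ± 0.44, adjusted p = 0.0392), and egressed library 2 and spleen library 2 came closest to each other. Ctsw, a cathepsin of cytotoxic lymphocytes, measured 1883, 2102, 2232 and 2244 and 1030.1, 976, 1330.2 and 1111 CPM (0.93 ± 0.15, adjusted p = 0.0237). Neither kept its call with the block (0.128 and 0.124, ranges over alternatives 9.04e-07 to 0.41 and 8.79e-07 to 0.274). In 6 of the 18 genes all egressed libraries lay above and in none below, with a median of 0.41. Gzmb, the granzyme of activated killer cells, stood at 123, 104, 132 and 166 and 42.1, 64.6, 13.5 and 25.4 CPM with no overlap and missed the threshold (1.85 ± 0.38, adjusted p = 0.0687). In tumor-retained cells Gzmb was at 1859 ± 413 CPM, and egressed cells were lower (-3.82 ± 0.41, adjusted p = 0.00154). Prf1, the pore protein perforin, overlapped at 149, 176, 74.2 and 238 and 179, 172, 196 and 159.8 CPM (-0.15 ± 0.30, 95% interval -0.79 to 0.49). Gzma overlapped as well (0.33 ± 0.54, interval -0.84 to 1.51).

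Cd160, an inhibitory receptor that binds HVEM, was the one called of 13 inhibitory receptors. It measured 226, 227, 207 and 184 CPM in egressed and 62.1, 95.6, 57.7 and 55.6 CPM in spleen libraries (1.64 ± 0.25, adjusted p = 0.0209, 0.0369 with the block, range over alternatives 2.68e-08 to 0.137). All libraries were above in 3 of the 13 and below in 2 (Vsir and Entpd1), and the median was 0.32. Pdcd1, which encodes PD-1, stood at 28.5, 47.7, 42.9 and 19.6 and 17.7, 17.7, 11.3 and 4.84 CPM with no overlap but was not called (1.43 ± 0.43, adjusted p = 0.243), and tumor-retained cells were far higher at 388 ± 155 CPM. Havcr2 (TIM-3) was near 0 in both groups, at 0.782, 4.17, 0 and 0 CPM in egressed and 2.92, 3.98, 2.22 and 3.38 CPM in spleen libraries, and Lag3 at 1.49, 0, 7.85 and 0 and 1.72, 2.55, 1.46 and 1.78 CPM. A count of 0 in an egressed library allows up to 0.0981 to 0.125 CPM (3 counts), and covers counting error only.

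Lilrb4a and Lilr4b, genes of leukocyte immunoglobulin-like receptors that no list held, were also higher. Lilr4b measured 158, 163, 33.6 and 78.5 CPM in egressed and 7.79, 17.3, 9.62 and 7.38 CPM in spleen libraries (3.37 ± 0.54, adjusted p = 0.0246). Lilrb4a measured 90.9, 65.5, 36.5 and 88.3 and 7.72, 11.7, 8.07 and 11.3 CPM (2.86 ± 0.43, adjusted p = 0.0194). Egressed library 3 was the lowest of its group in both. With the block Lilrb4a kept its call (0.0369, range over alternatives 5.96e-10 to 0.5) and Lilr4b did not (0.0628, range 1.17e-09 to 0.522). The genes share sequence (22.0% of the 50-base words of Lilrb4a), so the split of reads between them is uncertain. In tumor-retained cells they measured 601 ± 315 and 397 ± 248 CPM, more than in egressed cells (adjusted p = 0.0452 and 0.0165).

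Bhlhe40, Id2 and Mxd1, which encode regulators of transcription, were called higher. Bhlhe40, a helix-loop-helix repressor, measured 88.7, 114, 66.1 and 30.8 CPM in egressed and 12.3, 22, 10.4 and 11.5 CPM in spleen libraries (2.41 ± 0.41, adjusted p = 0.0333). Id2, an inhibitor of E proteins that favors effector cells, measured 488, 442, 400.1 and 320.1 and 217, 262, 235 and 234 CPM (0.80 ± 0.15, adjusted p = 0.0441). They were the called genes of 16 exhaustion-associated factors (2 above, none below, median 0.37). Tox, the best known of that list, overlapped at 39.4, 36.7, 22.4 and 62.6 and 58, 76.2, 52.7 and 50 CPM (-0.56 ± 0.35, 95% interval -1.32 to 0.21). Mxd1, an antagonist of MYC, measured 217, 210.0, 160.3 and 234 and 78.3, 72.3, 72.5 and 63.3 CPM (1.52 ± 0.23, adjusted p = 0.0209). For all 3 called genes the tumor-retained level was higher still, at 551 ± 219.6 CPM for Bhlhe40, 821 ± 109.6 for Id2 and 671 ± 233 for Mxd1 (adjusted p = 0.00921, 0.00989 and 0.00739 against egressed). With the block Mxd1 kept its call (0.0439) and Bhlhe40 (0.0853) and Id2 (0.146) did not, with ranges over alternatives of 6.54e-08 to 0.318, 1.76e-07 to 0.468 and 3.94e-06 to 0.234.

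Ctla2a, a cathepsin inhibitor first found in activated T cells, was among the 5 genes whose call no single library decided. It measured 521, 455, 291 and 314 CPM in egressed and 125, 112, 91.6 and 101 CPM in spleen libraries (1.88 ± 0.19, adjusted p = 0.00319, 0.00678 with the block, range over alternatives 6.13e-19 to 0.0283). The gene spans chr13:60934155-60936625 on the minus strand. Its relative Ctla2b measured 97.3, 80.1, 61.2 and 76.2 and 30, 36.6, 20.5 and 22.7 CPM (1.52 ± 0.27, adjusted p = 0.039), and 7.1% of the 50-base words of Ctla2a occur in it. Ly6a, the surface protein SCA-1, measured 296, 234, 270.2 and 222 and 93, 115, 89 and 87.8 CPM (1.41 ± 0.18, adjusted p = 0.0114). Of 14 chemokine receptors, 3 (Ccr8, Ccr9 and Cx3cr1) lay below in all libraries (21.4%, against 11.1% of all genes tested), and none of these 3 was called. Bcl2a1d, a survival factor of the BCL2 family, rose by 2.37 ± 0.38 (adjusted p = 0.0237) from 3.33, 4.57, 3.18 and 2.91 CPM in spleen to 14.3, 30.8, 14.1 and 13.1 CPM in egressed libraries, as the one called of 17 survival and death genes. However, 64.0% of its 50-base words occur in Bcl2a1a and 54.3% in Bcl2a1b, so its count is uncertain.

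Odc1, Vps37b and Ifrd1, which no list held, were called higher. Odc1, the first enzyme of polyamine synthesis, measured 280.2, 286, 138 and 223 CPM in egressed and 74.1, 74.1, 70.7 and 78.3 CPM in spleen libraries (1.64 ± 0.25, adjusted p = 0.0209). Vps37b, a subunit of the ESCRT-I sorting complex, measured 346, 278, 249 and 261 and 83, 72, 81.1 and 81.7 CPM (1.83 ± 0.32, adjusted p = 0.0346). Ifrd1, a transcriptional coregulator, measured 166, 192, 109 and 181 and 63.9, 73.8, 83.4 and 70.8 CPM (1.15 ± 0.21, adjusted p = 0.043). Each of them was higher again in tumor-retained cells, at 689 ± 220.1, 830.1 ± 401 and 356 ± 83.3 CPM (adjusted p = 0.0125, 0.0439 and 0.0276 against egressed).

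The other called-higher genes had smaller changes, many in short or abundant transcripts. Tmsb4x, which encodes the actin-binding peptide thymosin beta 4, measured 10086, 9897, 8673 and 8154 CPM in egressed and 5867, 5564, 5425 and 5888 CPM in spleen libraries (0.69 ± 0.09, adjusted p = 0.0114). Cd52, a small surface glycoprotein, rose by 0.64 ± 0.10 (adjusted p = 0.0259). The adhesion molecule gene Amica1 rose by 0.92 ± 0.15 and the phosphatase gene Ppm1j by 1.06 ± 0.17 (adjusted p = 0.0301 and 0.0283). With the block Tmsb4x kept its call (0.0369, range over alternatives 5.19e-13 to 0.188). Cd52 (0.077, range 1.11e-10 to 0.494), Amica1 (0.103, range 4.8e-09 to 0.172) and Ppm1j (0.14, range 1.6e-09 to 0.199) did not.

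Another 5 called-higher genes were non-coding RNAs and ribosomal protein genes. Gas5 and Zfas1, long non-coding RNAs whose introns hold small nucleolar RNAs, rose by 0.95 ± 0.13 and 1.32 ± 0.24 (adjusted p = 0.0138 and 0.0403). Snord118, the U8 small nucleolar RNA, stood at 7.78, 9.18, 9.91 and 6.52 CPM in egressed and 0.377, 0.663, 0.572 and 0.364 CPM in spleen libraries (4.07 ± 0.71, adjusted p = 0.0345), from very few counts in spleen. Its call was lost with the block (0.17, range over alternatives 1.49e-18 to 0.32) and in all 8 fits without a library. The kit copies polyadenylated RNA, so these counts may not measure the mature small RNA. The ribosomal protein genes Rpl34 and Rpl39 rose by 0.84 ± 0.15 and 0.85 ± 0.15 (adjusted p = 0.0398 and 0.0403). Of 84 ribosomal protein genes picked by symbol after their values were seen, these 2 were called, 37 had all egressed libraries above and none below, and the median was 0.34. Their median transcript length was 1100 bases. In the list of 20 drawn up for the analysis none was called and 5 lay above, against 11 with size factors and 10 with library size alone. Of the 5 called genes, Gas5 kept its call with the block (0.0407, range over alternatives 6.49e-12 to 0.195).

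Transcript length moved with the result and bears on both directions. Across 8418 genes of at least 10 CPM, Spearman's rho of the log2 fold change with the length of the longest annotated transcript was -0.36. In single egressed libraries, each set against the mean of the spleen libraries, rho was -0.355, -0.328, -0.247 and -0.196, and in spleen libraries, each set against the other 3, it lay between -0.121 and 0.12. The median log2 fold change was 0.21 for transcripts under 500 bases and -0.51 for those over 8000 bases. Called-higher genes had a median length of 2313 bases and called-lower genes of 4657 bases, against 3441.5 bases over the 8418 genes. With the fold changes corrected for this trend, 46 genes were called, 39 higher and 7 lower. Of the 79 genes, 30 of the 42 higher and 6 of the 37 lower kept their call. Higher genes that lost it included Cd52 (corrected log2 fold change 0.32, adjusted p = 0.305), Tmsb4x (0.47, 0.0942) and Klrd1 (0.90, 0.117). Rpl34 (0.72, 0.123) and Rpl39 (0.57, 0.22) lost it as well. So did Fasl, Snord118, Bcl2a1d, Ctsw, Ctla2b, Klrc1 and Id2, with adjusted p from 0.0541 (Fasl) to 0.0776 (Id2). Why length moved with the group was not tested.

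**Figure D3:**
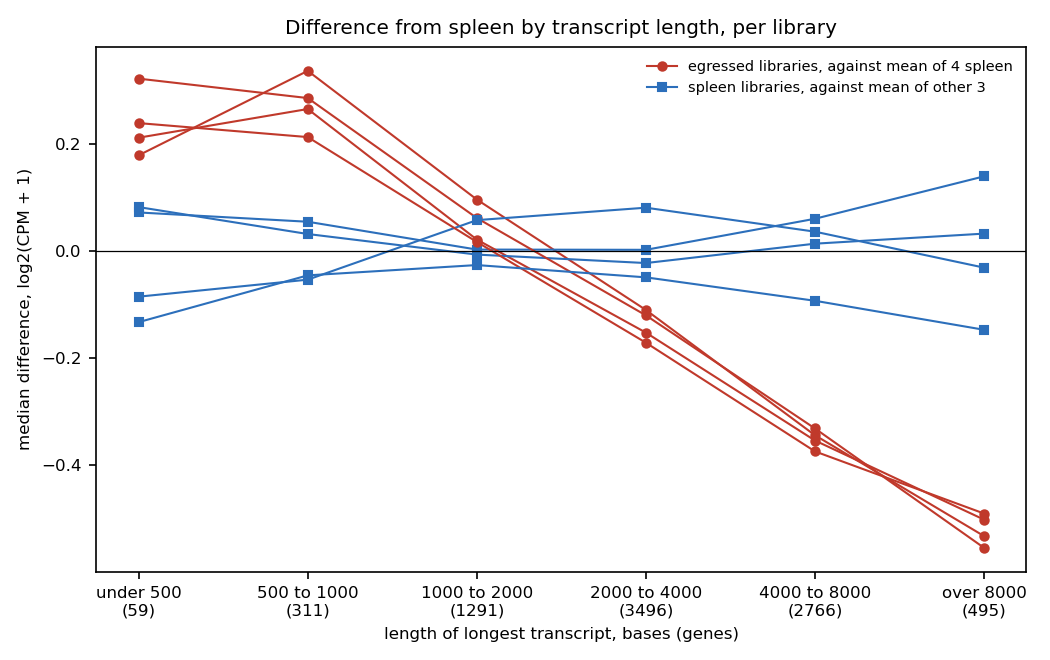
Median difference from spleen in log2(CPM + 1) (vertical axis) in 6 classes of transcript length (horizontal axis, with the number of genes) for each egressed library against the mean of the 4 spleen libraries (red) and each spleen library against the mean of the other 3 (blue). All 4 egressed lines fall from above 0 in short transcripts to between -0.49 and -0.55 in those over 8000 bases, while the spleen lines stay between -0.15 and 0.14.

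Of the genes lower in egressed cells, 3 were at 0 in all 4 egressed libraries. Slc40a1, which encodes the iron exporter ferroportin and is prominent in macrophages that recycle iron, stood at 12.3, 22, 5.84 and 4.4 CPM in spleen libraries, and its spleen mean was 98.2-fold above the mean of the egressed libraries' limits for 0 counts (3 counts per library, adjusted p = 0.0333). Zfp467, a zinc finger gene, stood at 7.76, 1.19, 3.33 and 6.4 CPM in spleen, with a mean 41.2-fold above that limit (adjusted p = 0.0428). Rnf24, a ring finger gene, stood at 1.96, 4.05, 3.11 and 1.64 CPM in spleen, with a mean 23.7-fold above it (adjusted p = 0.0428). These ratios cover counting error only and are not lower limits of the difference between the cells. The libraries carry no molecular identifiers, and egressed libraries 3 and 4 detected 14927 and 15251 genes against 30658 to 32165 in spleen libraries. All 3 calls were lost in each of the 8 fits without a library and with the block (0.208, 0.255 and 0.227, with ranges over alternatives of 1.69e-10 to 0.324, 0.00547 to 0.383 and 2.53e-07 to 0.379).

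Because Slc40a1 is a macrophage gene in the spleen, the macrophage markers are given beside it. The summed level of 18 such genes was 155 to 271 CPM in egressed and 179.7 to 281 CPM in spleen libraries, so the ranges overlapped. Most of that sum was Ctss, at 161, 195, 129 and 166 CPM in egressed and 147, 149, 163 and 142 CPM in spleen libraries. Of the defining ones, Csf1r stood at 1.64, 2.16, 0 and 1.91 CPM in egressed and 15.4, 19.2, 6.83 and 2.62 CPM in spleen libraries, and C1qa at 2.15, 0.607, 0 and 0 and 6.42, 5.48, 1.3 and 0.8 CPM. Adgre1 (F4/80) stood at 2.07, 1.97, 0 and 0 and 1.99, 6.04, 1.94 and 0.909 CPM. The remaining defining gene Lyz2 had a higher mean in egressed cells, through library 4. It stood at 1.06, 9.03, 0 and 68.1 CPM in egressed and 12, 0.837, 4.99 and 2.15 CPM in spleen libraries. In 4 of the 18 markers all egressed libraries lay below all spleen libraries, and the median log2 fold change was -1.56. In the fit of the 8 libraries alone 1 marker, Hmox1, was called lower (adjusted p = 0.0396) and none higher. The part of macrophage RNA in the difference of Slc40a1 was not tested.

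Kmt2d, which encodes a methyltransferase of histone H3 at enhancers, was the lower gene that no single library decided. It measured 146, 137, 168 and 150.4 CPM in egressed and 384, 311, 329.6 and 329 CPM in spleen libraries, and every egressed value was less than any spleen value. The log2 fold change was -1.17 ± 0.12 (adjusted p = 0.00342, 0.0267 with the block). Its longest transcript has 19823 bases, and with the length correction the call was lost (log2 fold change -0.55, adjusted p = 0.21, range over alternatives 3.5e-16 to 0.337). The gene spans chr15:98831669-98871204 on the minus strand.

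The largest decreases among well-expressed genes came in genes of varied function. Atp13a3, a polyamine transport ATPase, measured 27.8, 39.9, 22.3 and 24.1 CPM in egressed and 101, 113, 85.1 and 90.4 CPM in spleen libraries (-1.77 ± 0.26, adjusted p = 0.0194). Arf3, a small GTPase of the Golgi, measured 83.7, 75, 60.4 and 54.8 and 259.5, 218, 220.2 and 176 CPM (-1.67 ± 0.25, adjusted p = 0.0193). Tmbim6, also known as BAX inhibitor 1, measured 42.8, 46.2, 46.6 and 30.2 and 112, 114, 108 and 102 CPM (-1.39 ± 0.19, adjusted p = 0.0121). Arf3 and Tmbim6 kept their call under the length correction (0.0426 and 0.0154, ranges over alternatives 2.53e-07 to 0.2 and 2.82e-11 to 0.0956), and Atp13a3 did not (log2 fold change -1.28, adjusted p = 0.116, range 7.97e-07 to 0.175). The hairpin gene Mir6236 fell by 3.48 on the log2 scale (3.71, 3.41, 5.56 and 5.03 CPM in egressed, 77.2, 61.5, 29 and 30.2 CPM in spleen, adjusted p = 0.0333), but libraries of this kind do not measure the mature microRNA.

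Lfng, the fringe glycosyltransferase that tunes Notch receptors, measured 65.7, 62.3, 84.1 and 105 CPM in egressed and 213, 207, 218 and 185 CPM in spleen libraries (-1.38 ± 0.22, adjusted p = 0.0235). It was the one called of 14 Notch pathway genes (2 above, 2 below, median -0.37) and kept its call under the length correction (0.0426, range over alternatives 0.000101 to 0.156). Mknk2, a kinase of the translation factor eIF4E, measured 132, 108, 101 and 138 and 308, 264, 263 and 224 CPM (-1.14 ± 0.16, adjusted p = 0.0121) and also kept it (0.0385, range 2.26e-06 to 0.103). Srebf2, the main activator of cholesterol synthesis genes, measured 97.7, 88.1, 79 and 69.3 and 191, 187, 200.4 and 149 CPM (-1.12 ± 0.18, adjusted p = 0.0237) and lost it (log2 fold change -0.77, adjusted p = 0.134, range 2.95e-06 to 0.337). It was the one called of 18 cholesterol genes, of which 1 was above and 3 below, with a median of -0.68.

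Polr2a, which encodes the largest subunit of RNA polymerase II, was called lower. It measured 45.6, 50.3, 43.5 and 47.4 CPM in egressed and 136, 113, 127 and 104 CPM in spleen libraries (-1.36 ± 0.18, adjusted p = 0.0121). Ints5, a subunit of the integrator complex, measured 39.8, 38.3, 26 and 26.8 and 88.5, 97.5, 101 and 98.2 CPM (-1.55 ± 0.27, adjusted p = 0.0342). Cnot1, the scaffold of the deadenylase complex, measured 139, 119, 155 and 159 and 353, 319, 314 and 238 CPM (-1.10 ± 0.18, adjusted p = 0.0258). The values of each gene did not overlap, and none of the 3 kept its call under the length correction (0.0834, 0.0943 and 0.273, with corrected log2 fold changes of -0.89, -1.37 and -0.58 and ranges over alternatives of 6.49e-12 to 0.336, 5.65e-05 to 0.304 and 0.000641 to 0.475). The transcription factor genes Klf13 (-1.08 ± 0.14), Elf4 (-1.11 ± 0.17) and Nfatc3 (-0.98 ± 0.18) and the chromatin reader gene Brd2 (-0.66 ± 0.11) were called lower too, with adjusted p of 0.0114, 0.0235, 0.0465 and 0.0301.

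Another 8 called-lower genes are given with their roles. Numa1, which anchors the mitotic spindle, measured 175, 189.5, 233 and 133 CPM in egressed and 500.3, 440.3, 448 and 380.4 CPM in spleen libraries (-1.28 ± 0.21, adjusted p = 0.0305). Rcc2, a chromosome condensation regulator, measured 141, 197, 98.5 and 106 and 331, 349, 352 and 287 CPM (-1.28 ± 0.22, adjusted p = 0.0305), and Cad, the enzyme of the first steps of pyrimidine synthesis, 45, 59.6, 75.4 and 52.5 and 142, 158, 135 and 117 CPM (-1.25 ± 0.21, adjusted p = 0.0305). Tln1, Myh9 and Msn, which encode talin, a myosin heavy chain and moesin, fell by 0.98, 0.96 and 0.77 on the log2 scale (adjusted p = 0.0342, 0.0301 and 0.0333). Dock8, a guanine exchange factor that T cells need for migration, fell by 0.69 and Arhgap1 by 1.23 (adjusted p = 0.0487 and 0.0428). None of these 8 genes kept its call under the length correction, with corrected log2 fold changes from -1.05 (Arhgap1) to -0.19 (Dock8) and adjusted p from 0.0855 to 0.981 in the same genes, and over all alternatives the values ran from 2.89e-05 (Cad) to 0.981 (Dock8). The rest of the 37 were Fam168b, Prrc2b, Birc6, Ube2h, Cnp, Eif4g2, Slc35c1, Stt3b, Tram1, Trpc4ap and Ttc7, with log2 fold changes between -1.37 (Fam168b) and -0.64 (Eif4g2).

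**Figure D4:**
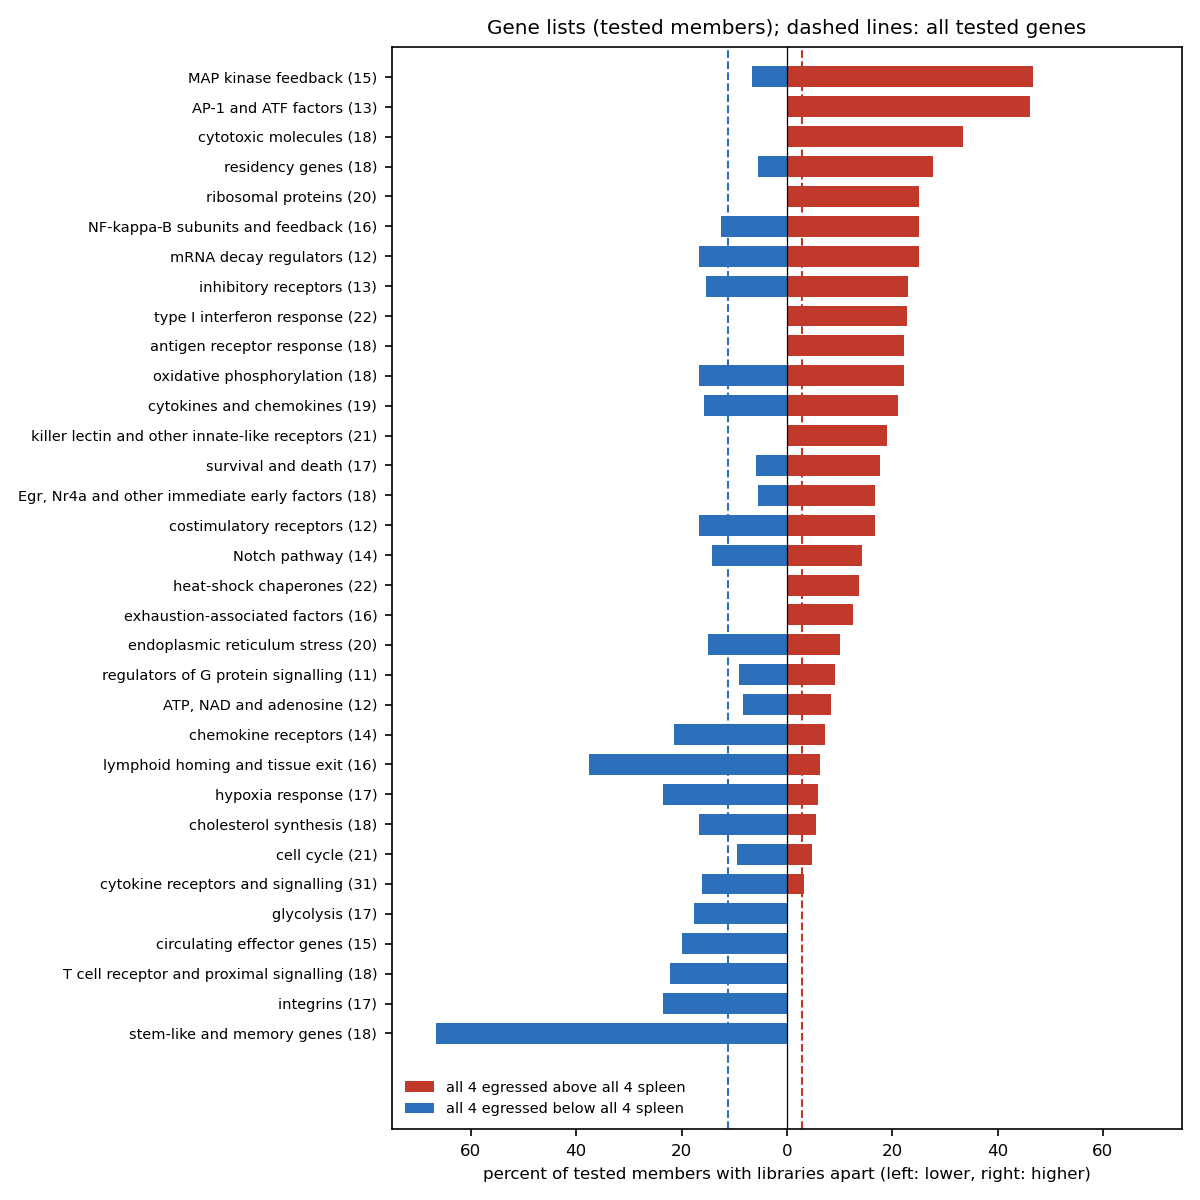
Percent of tested members (number in brackets) of each gene list in which all 4 egressed libraries lay above (red, to the right) or below (blue, to the left) all 4 spleen libraries, with dashed lines at 2.94% and 11.1% for all genes tested. MAP kinase feedback and AP-1 genes reach the furthest right with the TMM scaling drawn here, with 7 of 15 and 6 of 13, but ribosomal proteins (5 of 20 here) reach further with size factors (11 of 20) and library size alone (10 of 20), and stem-like and memory genes the furthest left, with 12 of 18.

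Stem-like and memory genes held no call, but the values of 12 of 18 lay below spleen in all egressed libraries and of none above, with a median log2 fold change of -0.42. With DESeq2's size factors the numbers were 9 below and 1 above and the median -0.25. Tcf7, the factor TCF1 of stem-like T cells, stood at 1374, 1379.6, 1294 and 1487 CPM in egressed and 1875, 1792, 1883 and 1707 CPM in spleen libraries (-0.39 ± 0.25, adjusted p = 0.903). Lef1, its relative, stood at 272, 252, 342 and 337 and 767, 673, 696 and 648 CPM (-1.21 ± 0.28, adjusted p = 0.114). Il6ra stood at 59.7, 41.6, 60.7 and 35.6 and 133, 104, 126 and 98.9 CPM (-1.22 ± 0.26, adjusted p = 0.0781). The median transcript of the tested members had 5716 bases, so the list sits where the length trend was downward. Slamf6 and Bach2 also lay below in all libraries (-0.53 ± 0.24 and -1.48 ± 0.44, adjusted p = 0.545 and 0.227).

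For homing and exit from tissue, which the design addresses most directly, no gene of 16 was called, 1 (Gpr183) lay above and 6 below in all libraries, and the median was -0.34. The 6 below were 37.5% of the list, against 11.1% of all genes tested. With size factors 1 lay above and 2 below (12.5%, against 8.19% of all genes tested), with a median of -0.18. Klf2 stood at 584, 648, 636 and 789 CPM in egressed and 684, 649.6, 693 and 625 CPM in spleen libraries, overlapping throughout (0.00 ± 0.26, 95% interval -0.55 to 0.56). S1pr1 stood at 663, 559, 858 and 597 and 807, 827, 812 and 616 CPM (-0.19 ± 0.26, interval -0.75 to 0.36). Ccr7 stood at 908, 935, 628 and 1056 and 844, 829.5, 958 and 846 CPM (0.02 ± 0.34, interval -0.72 to 0.76). The test does not show that the levels were equal, and the intervals give the differences that remain possible.

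Tumor-retained cells were lower in Klf2 at 192 ± 85.8 CPM (adjusted p = 0.00921 against egressed), while S1pr1 at 396 ± 178 CPM and Ccr7 at 453 ± 273 CPM were not called (adjusted p = 0.155 and 0.171). Cxcr3, a receptor that guides T cells to inflamed tissue, overlapped at 246, 252, 211 and 228 and 307, 299, 245 and 217 CPM (-0.19 ± 0.28, interval -0.79 to 0.41), as did Cxcr4 (0.25 ± 0.49, interval -0.81 to 1.30). Of 15 circulating effector genes none was called, and 3 lay below (20%, against 11.1% of all genes tested) and none above. Cx3cr1, the receptor of circulating effector cells, stood at 1.76, 7.47, 0 and 0 CPM in egressed and 41.9, 29.2, 15.4 and 8.37 CPM in spleen libraries (-3.36 ± 1.99, adjusted p = 0.844). Zeb2 stood at 1.84, 3.19, 0 and 0 and 27.4, 32.4, 13.7 and 6.37 CPM (-3.99 ± 1.87, adjusted p = 0.591), and Klrg1 overlapped at 0.0782, 10.5, 11.5 and 0 and 12.4, 12.1, 3.75 and 2.98 CPM. For all 3 the egressed libraries include values at or near 0, and the fits carry large errors.

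**Figure D5:**
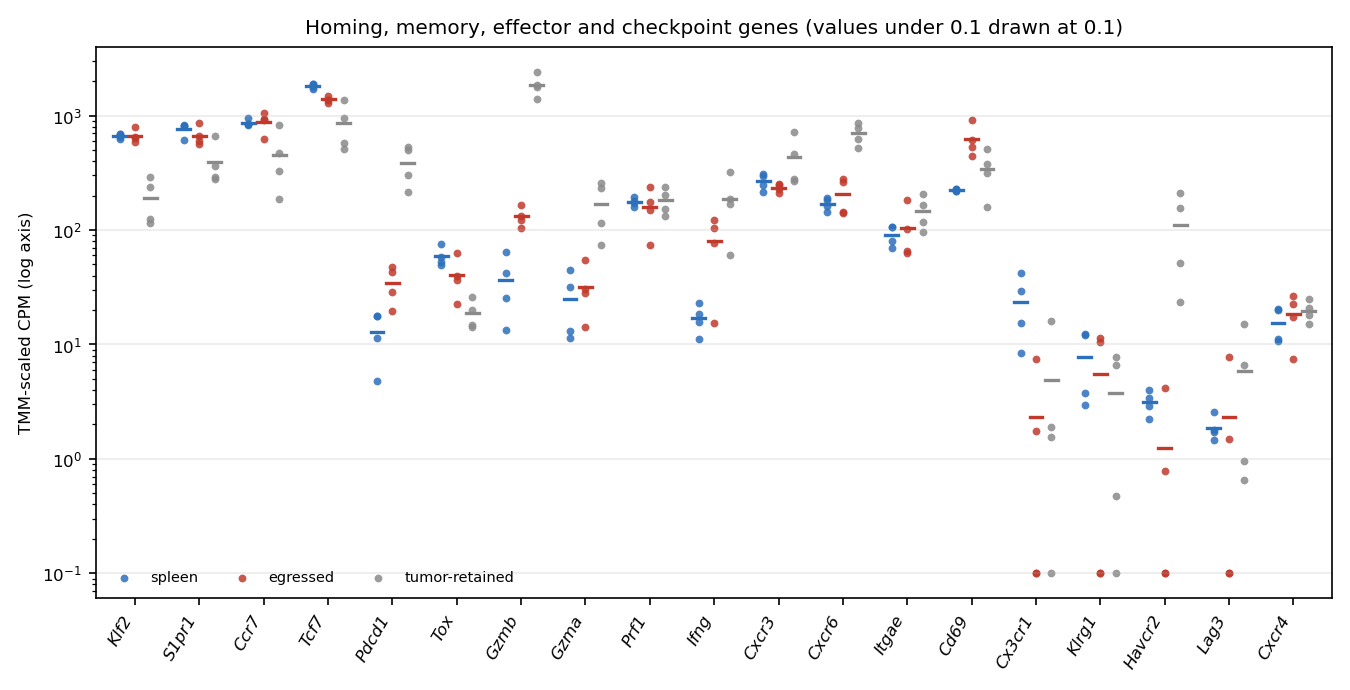
TMM-scaled CPM on a log axis for homing, memory, effector and checkpoint genes in each spleen (blue), egressed (red) and tumor-retained (grey) library, with bars at group means. Klf2, S1pr1 and Ccr7 overlap between spleen and egressed cells, Tcf7 lies slightly lower in egressed cells, and Gzmb, Cd69 and Pdcd1 lie higher without passing the test.

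Other programs held few or no calls. Type I interferon genes gave none of 22, with 5 above and none below in all libraries and a median of 0.57. Mx1, an antiviral GTPase, stood at 133, 61.3, 70.3 and 81 CPM in egressed and 25.1, 26.3, 29.1 and 23.2 CPM in spleen libraries (1.74 ± 0.33, adjusted p = 0.052). Irf7, the factor that amplifies the response, stood at 408, 282, 409.7 and 414 and 191, 190.3, 274 and 191 CPM (0.84 ± 0.27, adjusted p = 0.279). The 18 antigen receptor response genes held 2 calls, Nr4a1 and Bhlhe40, with 4 above, none below and a median of 0.70. Of 18 genes of the T cell receptor and proximal signalling none was called and 4 lay below (22.2%, against 11.1% of all genes tested). Among these 4 was Cd3e at 299, 299, 378 and 344 CPM in egressed and 719, 725, 615 and 556 CPM in spleen libraries (-0.99 ± 0.21, adjusted p = 0.0728). With size factors 2 of that list lay below and 4 above, and its median went from -0.04 to 0.13, so it has no direction that holds under every scaling.

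No gene was called among 21 of the cell cycle, 17 of glycolysis, 17 of the hypoxia response, 18 of oxidative phosphorylation, 17 integrins, 31 cytokine receptors and signalling genes, 12 costimulatory receptors, 12 regulators of mRNA decay or 12 genes of ATP, NAD and adenosine. Ldha, the enzyme that makes lactate, stood at 765, 724, 522 and 465 CPM in egressed and 906, 910.2, 875 and 863 CPM in spleen libraries (-0.52 ± 0.20, adjusted p = 0.381). Zfp36, which destabilizes cytokine mRNAs, stood at 548, 746, 543 and 727 and 290.5, 322, 399 and 348 CPM (0.91 ± 0.19, adjusted p = 0.0789). Atf4 was the one called of 20 endoplasmic reticulum stress genes, and Ppp1r15a, which reverses the stress block on translation, stood at 1042, 1374, 716 and 698 and 277, 268, 414 and 287 CPM with no overlap (1.62 ± 0.36, adjusted p = 0.0885). Tgfbr2, a receptor chain for TGF-beta, stood at 222, 241, 342 and 261 and 621, 479, 453 and 403 CPM (-0.88 ± 0.25, adjusted p = 0.19).

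The marker lists of other cell types are given by their summed levels. The summed level of 9 CD8 T cell genes was 7221 to 7752 CPM in egressed and 7613 to 8655 CPM in spleen libraries. B cell markers summed to 740.2 to 835 CPM in egressed and 708 to 873 CPM in spleen libraries, mostly from Ighm (609.9, 669, 592 and 588 CPM in egressed and 773, 693, 622 and 660.5 CPM in spleen libraries). Cd22, another B cell marker, stood at 159, 78.6, 115 and 116 CPM in egressed and 35.8, 37.3, 31.6 and 21.3 CPM in spleen libraries, so every egressed value was above every spleen value (1.89 ± 0.96, adjusted p = 0.674, and 0.0126 in the fit of the 8 libraries alone). It was the 1 marker of 14 tested that lay above, and 8 had a fold change above 0 and 6 below. The defining gene Cd79b stood at 17, 28.6, 26.6 and 0 CPM in egressed and 33, 23.9, 33.8 and 28.3 CPM in spleen libraries. Cd79a stood at 2.62, 0.645, 9.49 and 0 and 1.78, 2.06, 1.87 and 2 CPM. Ms4a1 stood at 0.0782, 4.17, 0 and 5.03 and 1.37, 3.52, 0.857 and 0.764 CPM. Dendritic cell markers summed to 187 to 551 CPM in egressed and 133 to 333 CPM in spleen libraries, and CD4 and regulatory T cell markers to 184 to 292 CPM in egressed and 154 to 204 CPM in spleen libraries. Foxp3, the factor of regulatory T cells, stood at 1.06, 0.986, 0 and 45.2 CPM in egressed and 4.46, 5.23, 3.65 and 5.57 CPM in spleen libraries. Cd4 stood at 1.02, 0.228, 1.67 and 2.49 and 0.275, 0.279, 0.572 and 0.255 CPM. Lyz2, a myeloid gene, was also highest in egressed library 4, at 68.1 CPM. Melanoma markers summed to 8.96 to 29.9 CPM in egressed and 23.7 to 37.4 CPM in spleen libraries and stromal and vessel markers to 77.9 to 139 CPM in egressed and 148 to 169 CPM in spleen libraries. With TMM scaling the stromal sum was lower in every egressed library than in any spleen library, while the ranges of the other sums in this paragraph overlapped. The stromal sum came mostly from Pecam1 (54.6, 82.2, 133 and 103 CPM in egressed and 145, 150, 149 and 134 CPM in spleen libraries). The median log2 fold change of the 13 stromal and vessel genes tested was 0.12. Of these, 1 lay below in all libraries with TMM, and none did with size factors or library size alone. The part of these other cell types in the called genes was not tested, and the calls without egressed libraries 3 and 4 are given above.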

How the data were processed

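Cells were sorted and RNA libraries made with the SMART-Seq v4 kit, per the labels' protocols. The kit copies full-length polyadenylated RNA without molecular identifiers, so limits drawn from 0 counts cover counting error only, and strand is not stated, so overlapping genes cannot be told apart. Tools listed in the submitters' processing notes are STAR 2.7.3a, Bowtie2 2.5.1, Cufflinks 2.2.1 and cutadapt 2.5, with build mm10 and no roles. Which program counted reads, and on which annotation, is not given in the sources used here. Raw counts were deposited by the authors for 48397 symbols, together with deposited log2 normalized values that were not used.

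Counts were filtered with filterByExpr (21457 genes kept), TMM-scaled and fitted in 1 edgeR 4.0.16 quasi-likelihood model of 12 libraries in 3 groups (R 4.3.3), with Benjamini-Hochberg adjustment at 0.05. Common biological variation was 1.21. limma 3.58.1 and DESeq2 1.42.0 served as alternatives. The fit was also run on simulated counts with a smaller spread than these data and larger changes than many called here. That run therefore does not show how the test performs on these data. Replicates are separate samples of 4 mice. The design text does not say that a replicate number marks 1 mouse. Deviations of same-numbered egressed and spleen libraries correlated at -0.0379 to 0.0724, and 1 of 4 egressed libraries matched its own number best. The deposited columns of each site carry the same numbers, and these correlations do not exclude that a number marks a mouse. As this is not stated, the number was used as a block only as an alternative. No library was a copy of another (chi-square per degree of freedom at least 17.6).

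Positions and lengths are from GENCODE M21 (mm10), which held 96.34% of tested genes. The genes named are the 15 largest called changes each way with non-overlapping groups and at least 10 CPM, called list members (at most 8 a list), a set of question genes and the 3 most abundant markers of each other cell type. The remaining called genes, list members with non-overlapping groups and further markers were named after their values were seen. The comparison and the gene lists were chosen with earlier results of these data known, and the length correction and the fits without egressed libraries 3 and 4 or a tumor-retained library were added after seeing the data. A few genes, among them some that were called, are not reported here.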

Additional observations from a re-analysis of the deposited data

Results flagged for a closer look

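Among 91 named genes, each tested in the egressed and in the spleen group (182 groups of 4), 13 single libraries lay far from the other 3, 6 of them egressed and 7 spleen. Chance alone marks about 1 in 20 groups when values are normally distributed. In egressed cells, Retnlg, Mmp8 and Alas2 were at 0 in all other libraries. Any count is flagged there, so that rate does not apply to them.

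Among called genes, spleen library 1 held 165.75 CPM of Tnfaip3 against 132 to 137 in the others, and spleen library 2 held 22.0 CPM of Bhlhe40 against 10.4 to 12.3. Spleen library 2 also held 95.6 CPM of Cd160 against 55.6 to 62.1, and spleen library 4 held 236 CPM of Klrd1 against 213 to 217. Each of these was the highest spleen library and still lay below every egressed library. Egressed library 2 held 30.8 CPM of Bcl2a1d against 13.1 to 14.3, and egressed library 4 held 428 CPM of Nfkbiz against 267 to 293.

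Of genes not called, S1pr1 was lowest in spleen library 4 at 616 CPM against 807 to 827, and Ccr7 was highest in spleen library 3 at 958 CPM against 829.5 to 846. Lyz2 stood at 68.1 CPM in egressed library 4 against 0 to 9.03 in the others. Egressed library 2 held 5.58 CPM of Retnlg and 3.49 CPM of Mmp8, both at 0 in the other egressed libraries, and spleen library 3 held 2.25 CPM of Mmp8 against 0.515 to 0.691. Alas2 stood at 3.87 CPM in egressed library 1 and at 0 in the other 3.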

How the results depend on the processing

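All 79 called genes that a setting tested kept their direction under it, and no value changed sign among the called genes. The main counts were 79 changed, 42 higher, 37 lower and 24 called genes held by a gene list, each gene counted once however many lists held it. The settings below give the same quantities in this order where they moved. Leaving out 1 library of any group gave 5 to 123 changed, 4 to 65 higher, 1 to 58 lower and 3 to 38 list genes. DESeq2 gave 507, 306, 201 and 84. The 8 libraries alone gave 230, 117, 113 and 46, and a filter of 10 CPM gave 158, 120, 38 and 48. With limma-voom the counts were 209 changed, 178 lower and 14 list genes, and without a filter 41 changed and 9 lower. DESeq2's size factors gave 70 higher and 20 lower, and library size alone 22 lower. With the replicate block the counts were 23, 15, 8 and 8, and with the block in the 8 libraries alone 8, 6, 2 and 4. Correction for transcript length gave 46 changed and 7 lower, and with the replicate block as well 14, 14, 0 and 8. Without egressed libraries 3 and 4 the counts were 24, 20, 4 and 14. The cause of these shifts was not tested. Whether a replicate number marks a mouse is not stated, and the weak correlation of same-numbered libraries does not exclude it. Calls lost under the replicate block are therefore less certain. Depth limits genes under about 0.125 CPM in an egressed library, and 4 libraries a group with a biological variation of 1.21 limit the rest.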
